A study of Macaca mulatta with 39 samples.

Results

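Mitotic kinesins, centromere proteins and spindle regulators were followed across cultured rhesus macaque cells of 3 kinds: embryonic stem cells (ESCs), fibroblasts grown out of teratomas, and skin fibroblasts. The genes were chosen by symbol from the probe annotation. They were the KIF kinesins, the CENP genes, the aurora kinases, the polo-like kinases, the BUB, SKA and SPC genes, and 10 further spindle genes written out by name. Of 14132 genes with a single-gene probe set on the array, 61 met this rule, and 112 of the 24956 probe sets carried them. Where a gene had several probe sets, the brightest on average was used. Of the genes written out by name or fixed for description, NDC80, TTK, BIRC5, PRC1, PLK1, BUB1, BUB1B, KIF11 and KIF20A were not analysed here.

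The ESC samples came from the female line C3806 and the male line C3106, each from pedigreed monkeys. The teratoma fibroblasts were explants of tumours that formed after ESCs were injected into mice lacking a working immune system. Cultures TA38, TB38 and TC38 came from line C3806, and TA31, TB31, TC31, TD31 and TE31 from line C3106. The skin fibroblasts, M032, M088 and M106p1, were explants from monkeys described as parents of the lines. No genetic change or drug treatment is recorded for any group. The labels state no age or growth condition, the meaning of p1 in the label M106p1 is not given, and which skin donor was a parent of which line was not used. Each ESC line and each fibroblast source had 3 arrays, which the labels call biological triplicates. Nothing says how the arrays of a source were kept apart, so the source, called a culture here, was the unit of comparison: 2 ESC lines, 8 teratoma cultures and 3 skin cultures, from 36 of the 39 arrays. Signals are log2 values, so a difference of 1 is a doubling, and a gene was called at an adjusted p under 0.05 together with a log2 difference of 1 or more in size. Adjusted p-values are from limma with Benjamini-Hochberg adjustment over all 14132 genes, two-sided throughout.

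A kinetochore is the protein plate that ties a chromosome to spindle microtubules. It is built on centromeric chromatin marked by the histone variant CENPA, through an inner layer of CENP proteins and an outer layer that includes the NDC80 complex. The spindle checkpoint, with MAD2L1 and BUB3, delays anaphase until every kinetochore is attached. Aurora and polo-like kinases regulate attachment and spindle assembly, and mitotic kinesins move chromosomes, shorten microtubules or build the midzone. Most of these transcripts are made in G2 and mitosis, so a culture with more dividing cells usually holds more of them. Many other kinesins carry cargo in cells that do not divide.

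By the means of marker genes, ESCs and fibroblasts separated as labelled on the arrays used, though some teratoma cultures also carried muscle genes. The mean log2 signal of 8 pluripotency genes was 10.78 in C3806 and 10.63 in C3106, against 5.28 to 5.42 in teratoma cultures and 5.20 to 5.28 in skin cultures. The mean of 7 fibroblast genes was 7.01 in C3806 and 6.93 in C3106, against 11.38 to 11.90 in teratoma cultures and 11.37 to 11.60 in skin cultures. In each ESC comparison, 7 of the 8 pluripotency genes were called higher and 5 of the 7 fibroblast genes lower. CDH1 was level, at 5.71 in C3806 and 5.61 in C3106, against 5.58 to 5.79 in teratoma cultures. THY1 read 10.11 in C3806 and 10.37 in C3106, within the teratoma range of 9.43 to 10.63. Skeletal muscle genes averaged 10.24 in TB31, 9.84 in TD31, 8.30 in TA38 and 8.10 in TB38, and at most 6.72 in the other cultures of all 3 kinds. Array medians lay between 6.25 and 6.48. Array C3806a had a gap of 3.89 between 3-prime and 5-prime actin probe sets, against at most 0.78 on the other arrays. A detection call was not available, but all 61 genes reached a mean of at least 6 in some culture.

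Arrays C3806c, TB31c and M106p1f go against their labels and were left out. The pluripotency gene POU5F1 read 4.84 on C3806c, against 12.72 and 13.06 on the other C3806 arrays. The muscle gene MYH3 read 7.03 on TB31c, against 12.25 and 12.12 on the other TB31 arrays, and 11.61 on M106p1f, against 6.83 and 6.75 on the other M106p1 arrays. Over 38 genes, the 61 without the 23 kinesins that are not classed as mitotic, the mean log2 signal was 8.78 on C3806c, against 9.04 and 9.09 on the other C3806 arrays. On TB31c it was 7.50, against 8.89 and 8.91 on the other TB31 arrays, and on M106p1f it was 8.80, against 7.40 and 7.32 on the other M106p1 arrays. TB31c therefore lay near the remaining M106p1 arrays. M106p1f lay near the remaining TB31 arrays on these values, but other gene sets placed it nearer the TD31 arrays. Means of 20 replication genes were 9.84 on M106p1f, 9.86 to 9.89 on TD31 arrays and 9.45 and 9.49 on the other TB31 arrays. Means of skeletal muscle genes were 9.78 on M106p1f, 9.78 to 9.92 on TD31 arrays and 10.23 and 10.26 on the other TB31 arrays. Which culture M106p1f came from was not tested. For TOP2A, which untangles replicated DNA, TB31c read 8.42 against 10.86 and 10.85 on the other TB31 arrays, and M106p1f read 10.74 against 8.18 and 6.76 on the other M106p1 arrays.

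**Figure D1:**
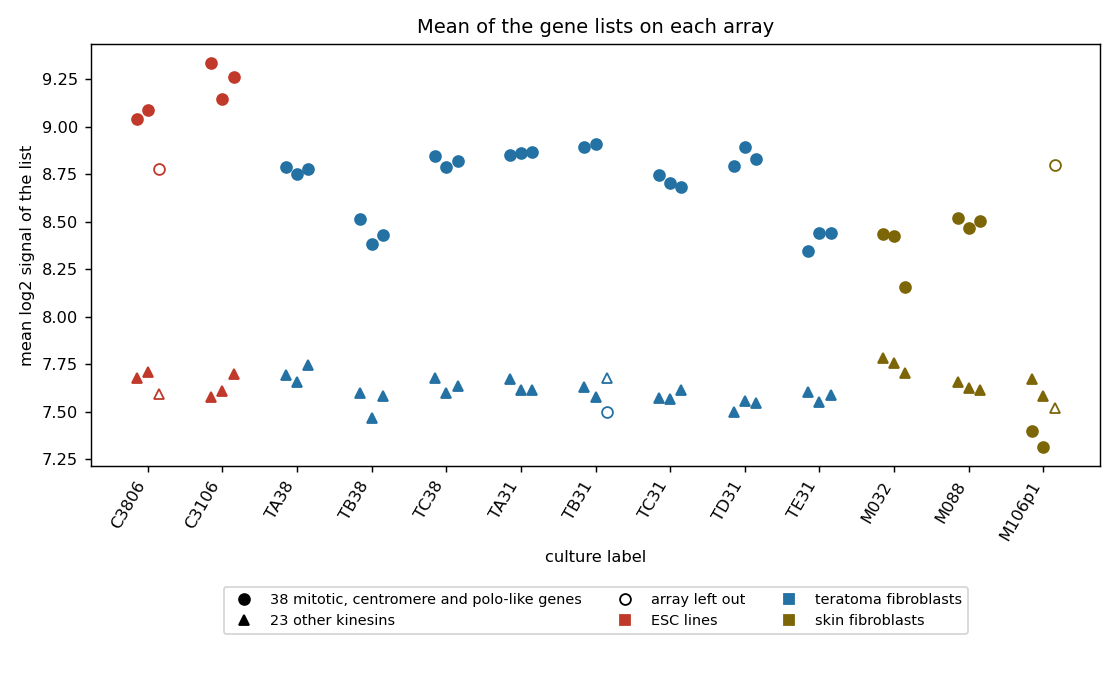
Mean log2 signal per array (y axis) of the 38 mitotic, centromere and polo-like genes (circles) and of the 23 other kinesins (triangles), by culture label (x axis); hollow symbols are the 3 arrays left out. The 38-gene mean is highest in both ESC lines and lowest in M106p1 at 7.40 and 7.32, while the other kinesins stay level, and hollow circles at TB31 (7.50) and M106p1 (8.80) lie away from the filled ones.

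As a group, the 38 genes had their highest level in ESCs and their lowest in a single skin culture. Their mean log2 signal was 9.06 in C3806 and 9.25 in C3106. In teratoma cultures it ran from 8.41 in TE31 and 8.44 in TB38 to 8.90 in TB31. In skin it was 8.34 in M032, 8.50 in M088 and 7.36 in M106p1. The teratoma cultures and the skin cultures M032 and M088 therefore overlapped, and M106p1 stood apart from all others. The 23 other kinesins showed no such gradient, with means of 7.69 in C3806 and 7.63 in C3106, 7.53 to 7.70 in teratoma cultures and 7.63 to 7.75 in skin cultures. In these bulk samples, fewer dividing cells and less RNA per dividing cell cannot be told apart.

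**Figure D2:**
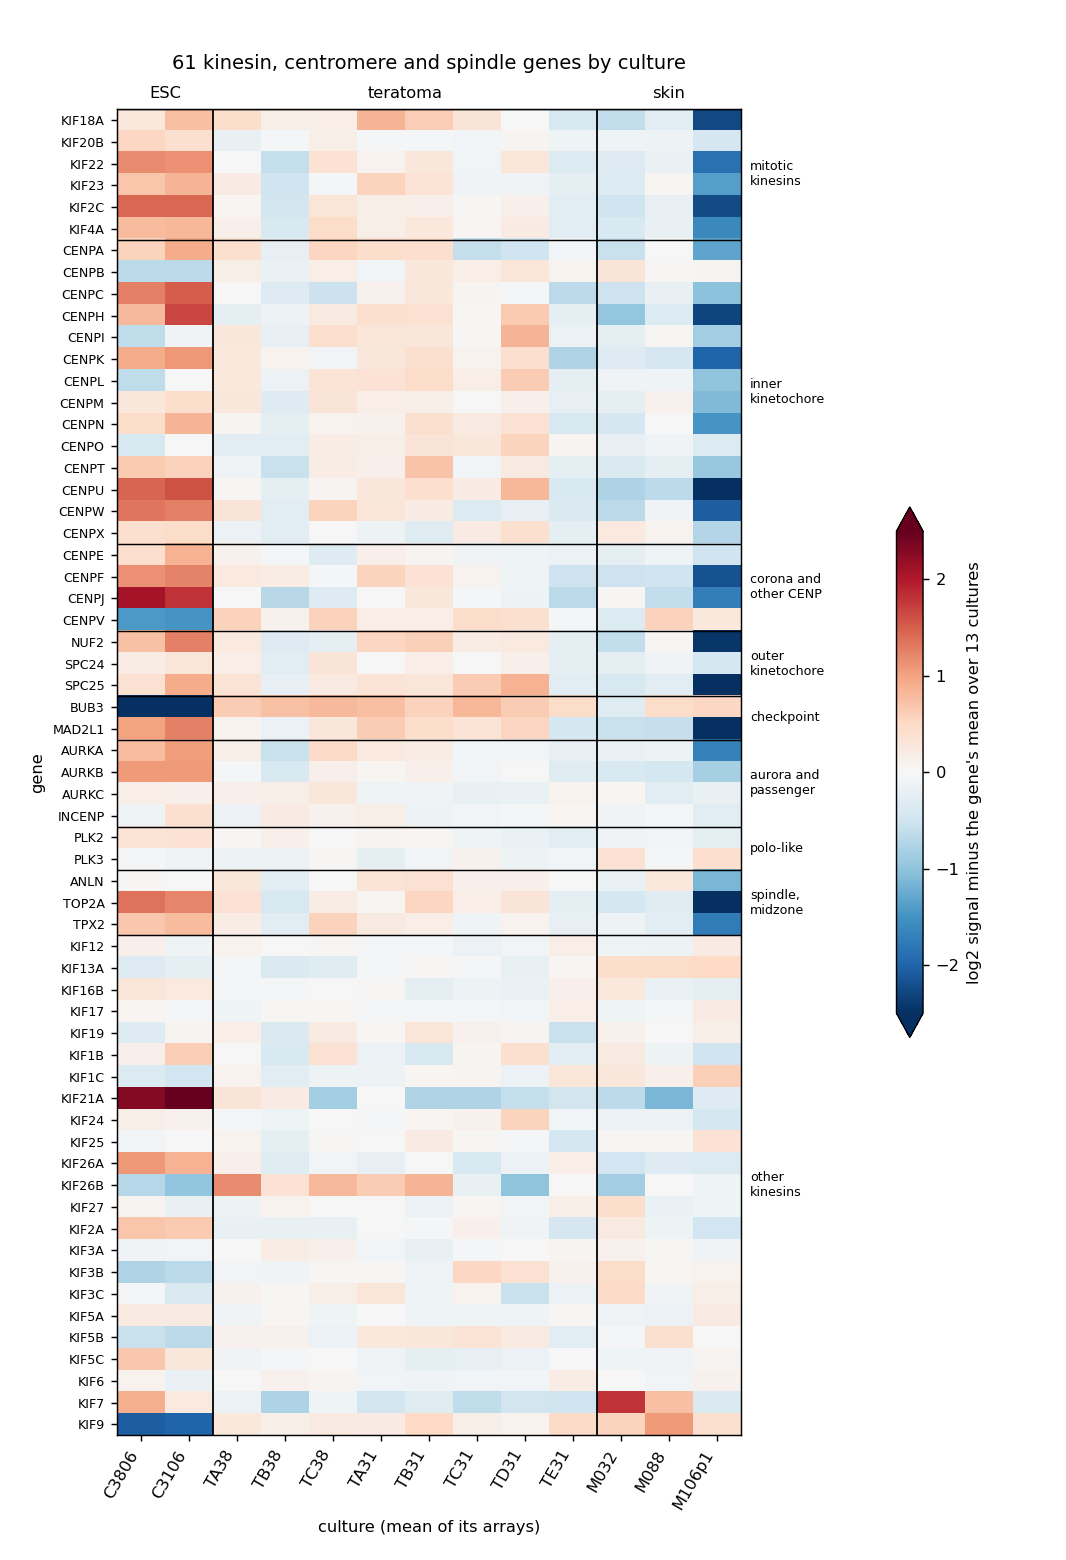
Log2 signal of each of the 61 genes (rows, grouped by role) in 13 cultures (columns; ESC, teratoma, skin), minus the gene's mean over the cultures; colours run to ±2.5, and 7 values lie beyond. The ESC columns are mostly red and M106p1 mostly blue among the 38 upper genes, BUB3 and CENPV run the other way, and most other kinesins stay pale.

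Between ESCs and teratoma fibroblasts, 11 of the 61 genes were higher in ESCs and 3 were lower. This was 18.0% and 4.92% of them, against 6.49% of all genes called higher and 8.36% called lower. The median log2 difference of the 61 was 0.37, against 0.03 over all genes. Among the 38 mitotic, centromere and polo-like genes 9 were higher and 2 lower, with a median of 0.61, and among the 23 other kinesins 2 were higher and 1 lower, with a median of 0.01. In 30 of the 61 genes both ESC lines lay above all 8 teratoma cultures, or 49.2%, and 24.7% of all genes did so. A further 11 genes had an adjusted p under 0.05 but a difference under 1, of which 7 were positive. The ESC side rests on 2 lines: 5 genes were called higher without C3106 and 4 without C3806. AURKB, CENPC, CENPJ and KIF21A remained called with any 1 of the 13 cultures left out, as did the 3 lower genes. CENPF, CENPU, CENPW, KIF22 and KIF2C lost their calls without either ESC line, CENPU also without TB38, and CENPH without either line or any 1 of M032, TA31, TA38, TB31, TB38, TC31, TC38 and TE31. KIF26A was not followed singly in these repeats.

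Between ESCs and skin fibroblasts, 24 of the 61 were higher in ESCs, or 39.3%, and 3 were lower, or 4.92%. Among all genes, 10.3% were called higher and 9.91% lower. Of the 38 genes, 22 were higher and 2 lower, with a median log2 difference of 1.35. Of the 23 other kinesins 2 were higher and 1 lower, with a median of -0.09. Both ESC lines lay above all 3 skin cultures in 35 of the 61, or 57.4%, and in 33.3% of all genes. Without M106p1 the count was 17 higher, all of them among the 24, and 3 lower, while 8.82% of all genes were higher. The 7 genes that dropped out, CENPA, CENPN, CENPT, KIF18A, KIF23, SPC25 and TPX2, had differences of 0.87 to 1.02 without it. Without C3106, 16 were called, and AURKA, NUF2, CENPA, KIF18A, KIF23, SPC25 and TPX2 were among those lost. CENPT and SPC25 were lost without C3806.

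All 11 genes higher in ESCs than in teratoma fibroblasts were also higher than in skin, and the same 3 genes were lower in both comparisons. The comparisons share the ESC lines, so this is not a repeat. A further 13 genes were called higher against skin only, and of these only MAD2L1 also passed the test of teratoma against skin fibroblasts, which is the test of whether the 2 ESC differences differ.

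Between teratoma and skin fibroblasts, limma called 4 of the 61 higher in teratoma fibroblasts, or 6.56%, and none lower, against 1.00% of all genes higher and 0.793% lower. At an unadjusted p under 0.05 there were 31 of the 61, or 50.8%, against 23.8% of all genes. The 4 were CENPU, MAD2L1, CENPH and CENPF, with adjusted p-values of 0.040 to 0.049. All 8 teratoma cultures lay above all 3 skin cultures in 5 of the 61, or 8.20%, and in 4.44% of all genes. None of the 4 calls held without M106p1, when the differences were 0.87 for CENPU, 0.79 for MAD2L1, 0.79 for CENPH and 0.61 for CENPF, with adjusted p-values of 0.102 to 0.169. Leaving out the 13 cultures in turn, no gene was called higher in 10 cases, M106p1 among them, 1 was called without TA38, 6 without TE31 and 12 without M088.

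**Figure D3:**
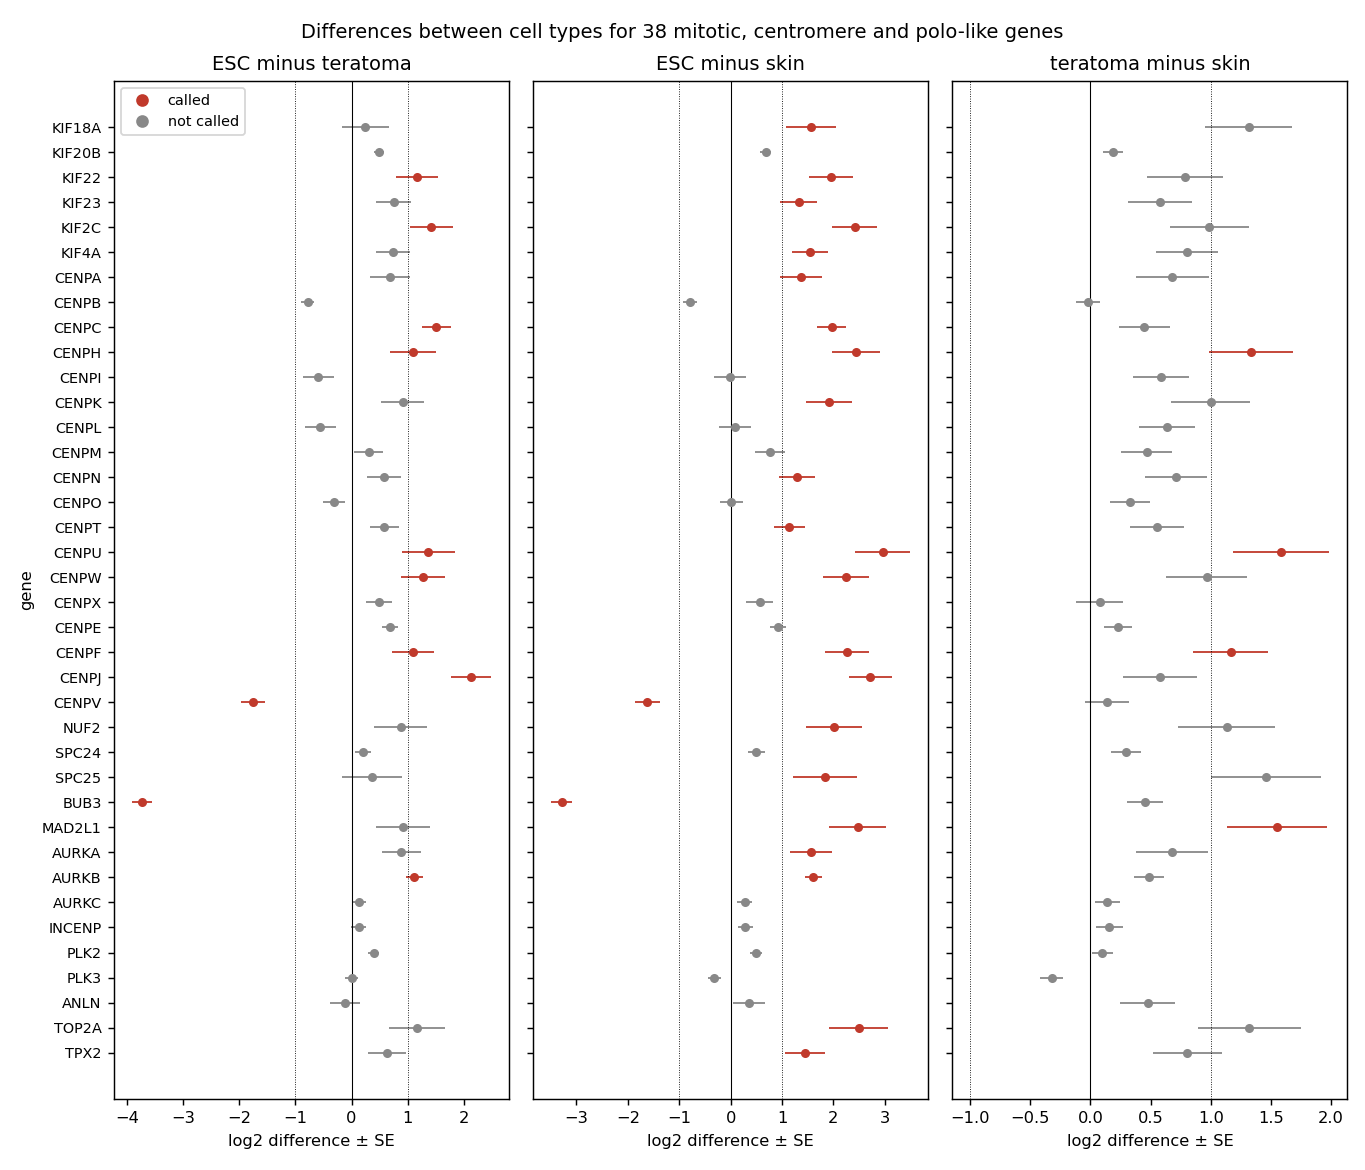
Log2 difference with its standard error (x axis) for the 38 genes (rows, by role), for ESC minus teratoma, ESC minus skin and teratoma minus skin; red points were called. Most points lie right of 0 in all 3 panels, 22 are red on that side against skin and 9 against teratoma, while BUB3 and CENPV lie left of -1 in both ESC panels.

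The 6 mitotic kinesins measured had positive differences in each comparison. KIF2C, which removes tubulin from microtubule ends at centromeres, had a log2 signal of 10.52 in C3806 and 10.53 in C3106. It ran from 8.64 in TB38 through a median of 9.18 to 9.40 in TC38, and read 8.60 in M032, 8.88 in M088 and 6.86 in M106p1. Both ESC lines lay above every fibroblast culture. The ESC mean was 2.68-fold the teratoma mean (log2 1.42, SE 0.39, adjusted p = 0.0103) and 5.32-fold the skin mean (log2 2.41, SE 0.45, adjusted p = 0.00082). A dimmer KIF2C probe set gave 0.94 over teratoma fibroblasts, under the fold limit, and 1.57 over skin. KIF22, a chromosome-arm kinesin, read 9.44 in C3806 and 9.40 in C3106, 7.65 to 8.61 in teratoma cultures, and 7.93, 8.09 and 6.38 in skin, and was higher in ESCs by 1.17 over teratoma fibroblasts and 1.95 over skin. Another KIF22 probe set gave differences of -0.01 and 0.49, under the fold limit in both comparisons.

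KIF23, the motor of the centralspindlin complex at the midzone, had 9.846 in C3806 and 10.002 in C3106, a teratoma range of 8.66 in TB38 to 9.71 in TA31 with a median of 9.09, and 8.81, 9.19 and 7.78 in M032, M088 and M106p1. The lines lay above all fibroblasts, but the difference from teratoma fibroblasts was 0.75 (SE 0.31, adjusted p = 0.0758) and did not pass. KIF4A, a chromosome-bound kinesin encoded on the X chromosome, differed by 0.74 from teratoma fibroblasts without passing the test and by 1.54 from skin. KIF18A, which shortens kinetochore fibres, differed by 0.25 and 1.56, and the second value passed. KIF20B, a cytokinesis kinesin, differed by 0.49 and 0.68, under the fold limit. A dimmer KIF20B probe set gave 1.32 (adjusted p = 0.0324) and 2.28 (adjusted p = 0.0033), past the limits in both comparisons, and the other 2 gave -0.03 and 0.61 from teratoma fibroblasts.

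The inner kinetochore group held 14 genes. CENPA and its partners gave 4 genes higher in ESCs than in teratoma fibroblasts and 8 higher than in skin, or 5 without M106p1, with none lower. CENPU, of the CENP-O branch, read 10.13 in C3806 and 10.27 in C3106, ran from 8.30 in TE31 through a median of 8.81 to 9.51 in TD31, and read 7.90 in M032, 8.02 in M088 and 5.79 in M106p1. The 3 cell types did not overlap. CENPU was higher in ESCs by 1.37 over teratoma fibroblasts (SE 0.47, adjusted p = 0.0334) and by 2.96 over skin (SE 0.54, adjusted p = 0.00075), and teratoma fibroblasts exceeded skin by 1.59 (SE 0.40, adjusted p = 0.040). Its other probe set, dimmer, gave 0.32 and 0.58 for the ESC differences.

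CENPC, which links CENPA nucleosomes to the outer plate, read 7.84 in C3806 and 8.09 in C3106, 5.93 to 6.87 in teratoma cultures with a median of 6.57, and 6.07, 6.38 and 5.55 in skin. The lower line lay 0.97 above the nearest fibroblast culture. CENPC was higher in ESCs by 1.52 over teratoma fibroblasts (SE 0.25, adjusted p = 0.00039) and by 1.97 over skin (SE 0.29, adjusted p = 0.00016). CENPW, a histone-fold partner of CENPT, was higher by 1.28 and 2.24.

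CENPH, of the CENP-H, I and K branch, read 7.40 in C3806 and 8.26 in C3106, so the lines themselves were 0.86 apart. Teratoma cultures ran from 6.35 in TE31 through 6.72 to 7.24 in TD31, and skin read 5.63, 6.25 and 4.30 in M032, M088 and M106p1. By culture mean the cell types did not overlap, with C3806 only 0.15 above TD31. On single arrays they did, with 7.18 on C3806a and 7.62 on C3806b, against 7.13 to 7.41 on the TD31 arrays. The difference from teratoma fibroblasts was 1.10 (SE 0.40, adjusted p = 0.0469), close to the threshold, and that from skin was 2.44 (SE 0.47, adjusted p = 0.00107). CENPK, of the same branch, differed by 0.91 and 1.92, and the second value passed.

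CENPA itself read 8.74 in C3806 and 9.12 in C3106, ran in teratoma cultures from 7.59 in TC31 through 8.36 to 8.72 in TC38, and read 7.64, 8.19 and 6.86 in skin. By culture mean both lines lay above all fibroblasts, C3806 by 0.02 over TC38. The C3806 arrays lay apart, at 8.24 on C3806a, the array with the wide actin gap, and 9.25 on C3806b. CENPA was higher in ESCs than in skin by 1.37 (SE 0.41, adjusted p = 0.0165), and its difference from teratoma fibroblasts was 0.69 (adjusted p = 0.148). CENPN and CENPT were also higher in ESCs than in skin, by 1.29 and 1.14. CENPM differed by 0.30 and 0.77, and CENPX by 0.49 and 0.57, under the fold limit or without passing.

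Not all inner kinetochore genes followed this order. CENPI, CENPL and CENPO had negative differences from teratoma fibroblasts, of -0.59, -0.56 and -0.31, and differences from skin of -0.00, 0.08 and 0.02, none of which passed. CENPB, which binds a motif in centromeric satellite DNA, read 8.62 in C3806 and 8.64 in C3106, against 9.12 to 9.59 in teratoma cultures and 9.32 to 9.61 in skin. Both lines lay below all fibroblasts, by a log2 difference of -0.78 from teratoma (adjusted p = 0.00021) and -0.80 from skin (adjusted p = 0.00049), under the fold limit.

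A further group of 4 genes joined the corona genes CENPE and CENPF with the other CENP genes CENPJ and CENPV. Of the 4, 2 were higher in ESCs and 1 lower, in both comparisons. Of its corona genes only CENPF was called. CENPF, a large corona protein, read 12.16 in C3806 and 12.25 in C3106, ran in teratoma cultures from 10.50 in TE31 through 11.14 to 11.55 in TA31, and read 10.48 in M032, 10.50 in M088 and 8.84 in M106p1. It was higher in ESCs by 1.10 over teratoma fibroblasts (SE 0.37, adjusted p = 0.0308) and by 2.26 over skin (SE 0.42, adjusted p = 0.00092), and its other probe set gave 1.03 and 1.84. CENPE, the corona kinesin that carries chromosomes to the spindle equator, read 8.61 in C3806 and 9.05 in C3106, 7.88 to 8.32 in teratoma cultures with a median of 8.12, and 7.94, 8.08 and 7.70 in skin. The lines lay above all fibroblasts, with differences of 0.69 and 0.92 that stayed under the fold limit.

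CENPJ, a centriole assembly protein, read 9.39 in C3806 and 9.12 in C3106, 6.61 to 7.59 in teratoma cultures with a median of 7.22, and 7.33, 6.69 and 5.58 in skin. The lower line lay 1.53 above the nearest fibroblast culture, against 0.60 for CENPF. CENPJ was 4.41-fold higher in ESCs than in teratoma fibroblasts (log2 2.14, SE 0.36, adjusted p = 0.00043) and 6.58-fold higher than in skin (log2 2.72, SE 0.41, adjusted p = 0.0002). Its other 2 probe sets gave differences of 1.43 and 1.07 from teratoma fibroblasts and 1.76 and 1.23 from skin.

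**Figure D4:**
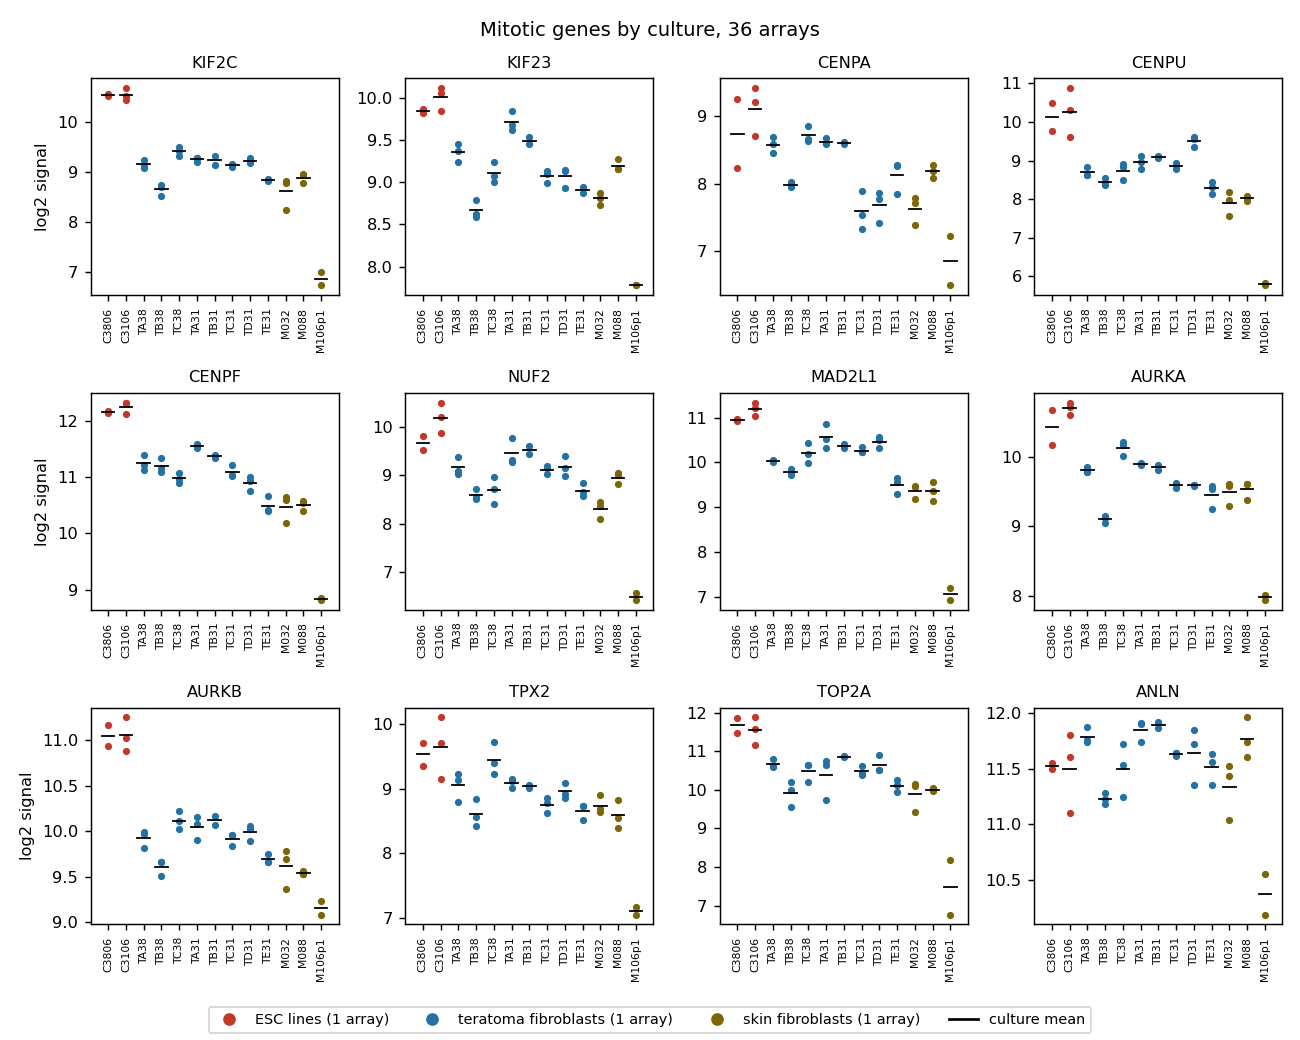
Log2 signal (y axes) of 12 mitotic genes on each of 36 arrays (points) with culture means (bars), by culture (x axes; ESC red, teratoma blue, skin brown). By culture mean, M106p1 is lowest in every panel, and the ESC lines are above all fibroblasts in every panel except ANLN, where they lie among them.

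NUF2, a subunit of the NDC80 complex, read 9.67 in C3806 and 10.19 in C3106, ran in teratoma cultures from 8.59 in TB38 through 9.14 to 9.52 in TB31, and read 8.30 in M032, 8.95 in M088 and 6.49 in M106p1. The lines lay above all fibroblasts, C3806 by 0.15 over TB31. NUF2 was higher in ESCs than in skin by 2.01 (SE 0.55, adjusted p = 0.0095), and the difference from teratoma fibroblasts of 0.88 did not pass (SE 0.47, adjusted p = 0.165). SPC25, of the same complex, differed by 0.37 from teratoma fibroblasts and by 1.84 from skin, the second of which passed. SPC24 differed by 0.21 and 0.50, under the fold limit.

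Both checkpoint genes measured behaved differently. MAD2L1, the inhibitor that checkpoint signalling produces, read 10.95 in C3806 and 11.20 in C3106, ran in teratoma cultures from 9.50 in TE31 through 10.24 to 10.57 in TA31, and read 9.37, 9.36 and 7.06 in M032, M088 and M106p1. The 3 cell types did not overlap. It was higher in ESCs than in skin by 2.47 (SE 0.56, adjusted p = 0.0032) and by 0.92 over teratoma fibroblasts, which did not pass (SE 0.48, adjusted p = 0.155), and teratoma fibroblasts exceeded skin by 1.55 (SE 0.41, adjusted p = 0.0471). Its other probe set gave 2.43, 0.86 and 1.57 for the same differences.

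BUB3, which carries the checkpoint kinases to kinetochores, ran the other way. It read 8.86 in C3806 and 9.07 in C3106, against 12.48 to 12.85 in teratoma cultures with a median of 12.71, and 11.73, 12.49 and 12.54 in skin. Its signal was 13.4-fold lower in ESCs than in teratoma fibroblasts (log2 -3.74, SE 0.17, adjusted p = 1.1e-08) and 9.77-fold lower than in skin (log2 -3.29, SE 0.20, adjusted p = 1.5e-07), and on single arrays it ran from 8.56 to 9.46 in ESCs and from 11.59 to 12.93 in fibroblasts. M106p1, lowest for most genes here, was the highest of the skin cultures for BUB3. A single probe set carried the gene, so the value has no second reading on the array.

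AURKB, the kinase of the chromosomal passenger complex, had the smallest standard errors among the mitotic genes called in ESCs. It read 11.05 in C3806 and 11.05 in C3106, ran in teratoma cultures from 9.61 in TB38 through 9.96 to 10.12 in TB31, and read 9.62, 9.54 and 9.16 in skin. It was higher in ESCs by 1.12 over teratoma fibroblasts (SE 0.15, adjusted p = 6.3e-05) and by 1.61 over skin (SE 0.17, adjusted p = 1.1e-05). A second, dimmer AURKB probe set gave -0.00 and -0.07. AURKA, the spindle-pole kinase, read 10.43 in C3806 and 10.71 in C3106, 9.11 in TB38 to 10.14 in TC38 in teratoma cultures with a median of 9.70, and 9.50, 9.54 and 7.97 in skin. It was higher in ESCs than in skin by 1.57 (SE 0.41, adjusted p = 0.0072), and its difference from teratoma fibroblasts was 0.89 (SE 0.35, adjusted p = 0.0625).

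INCENP, the scaffold of the passenger complex, read 6.75 in C3806 and 7.26 in C3106, 6.72 to 7.07 in teratoma cultures with a median of 6.86, and 6.77, 6.81 and 6.58 in skin. The cell types overlapped and neither difference passed, with values of 0.13 (SE 0.13) and 0.29 (SE 0.15). AURKC, known best from germ cells, differed by 0.13 and 0.27 without passing.

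TOP2A read 11.68 in C3806 and 11.54 in C3106, ran in teratoma cultures from 9.91 in TB38 through 10.49 to 10.86 in TB31, and read 9.88 in M032, 10.01 in M088 and 7.47 in M106p1. The lines lay above all fibroblasts. It was higher in ESCs than in skin by 2.49 (SE 0.58, adjusted p = 0.0038). The difference from teratoma fibroblasts was 1.17 (SE 0.50, adjusted p = 0.084), and it passed without M106p1 (adjusted p = 0.00076) and without all 3 skin cultures (SE 0.21, adjusted p = 0.0014), since the skin spread enters the shared error.

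TPX2, which activates AURKA on the spindle, read 9.53 in C3806 and 9.66 in C3106, 8.61 in TB38 to 9.45 in TC38 in teratoma cultures, and 8.74, 8.59 and 7.11 in skin. C3806 lay only 0.08 above TC38. TPX2 was higher in ESCs than in skin by 1.45 (SE 0.39, adjusted p = 0.0092), and differed by 0.64 from teratoma fibroblasts (adjusted p = 0.158). ANLN, the anillin of the cleavage furrow, did not follow: it read 11.52 in C3806 and 11.50 in C3106, 11.23 to 11.89 in teratoma cultures with a median of 11.64, and 11.33, 11.77 and 10.37 in skin. The ESC lines lay within the teratoma range, and the differences were -0.12 (SE 0.27) and 0.36 (SE 0.31).

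The polo-like kinases measured, PLK2 and PLK3, are stress-responsive members of the family rather than its mitotic founder. PLK2 differed by 0.39 from teratoma fibroblasts and 0.49 from skin, with adjusted p-values of 0.0075 and 0.0043 and sizes under the fold limit. PLK3 differed by 0.00 and -0.32 and passed in neither. M106p1 was the lowest culture for neither gene.

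Among the 23 other kinesins, 3 genes were called. KIF21A, which restrains microtubule growth at the cell cortex, read 8.50 in C3806 and 8.87 in C3106, 5.35 to 6.51 in teratoma cultures with a median of 5.68, and 5.55, 5.06 and 5.89 in skin. It had the largest difference of the 61 in the positive direction, 7.15-fold over teratoma fibroblasts (log2 2.84, SE 0.32, adjusted p = 2.1e-05) and 9.09-fold over skin (log2 3.18, SE 0.37, adjusted p = 2.6e-05), and its dimmer probe set gave 1.14 and 1.17. KIF26A, an atypical kinesin whose mouse protein acts in enteric neurons, was higher in ESCs by 1.08 and 1.36. It read 8.01 in C3806 and 7.79 in C3106, 6.55 to 7.09 in teratoma cultures and 6.44 to 6.59 in skin. Its dimmer probe set gave 0.32 and 0.47, under the fold limit. M106p1 was not the lowest skin culture for either gene.

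KIF9, known from cilia and sperm tails, was lower in ESCs, at 6.89 in C3806 and 6.96 in C3106, against 9.04 to 9.46 in teratoma cultures and 9.52, 10.02 and 9.35 in skin. Its difference was -2.29 from teratoma fibroblasts (SE 0.15, adjusted p = 2.6e-07) and -2.71 from skin (SE 0.18, adjusted p = 2.6e-07). The other 4 KIF9 probe sets gave differences between -0.53 and 0.13. CENPV, a centromere-associated protein listed with the other CENP genes, was the third gene lower in ESCs. CENPV read 8.44 in C3806 and 8.39 in C3106, against 9.83 to 10.46 in teratoma cultures with a median of 10.16. In skin it read 9.54, 10.45 and 10.13. It differed by -1.76 from teratoma fibroblasts (SE 0.21, adjusted p = 3.3e-05) and by -1.62 from skin (SE 0.24, adjusted p = 0.00018).

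Most of the remaining kinesins not classed as mitotic differed by less. KIF2A, a spindle-pole relative of KIF2C, differed by 0.79 from teratoma fibroblasts and 0.80 from skin, with adjusted p-values of 0.0013 and 0.0029, and KIF3B, a motor of intraflagellar transport, by -0.82 and -0.92, with adjusted p-values of 0.0015 and 0.0017. Both stayed under the fold limit. KIF13A, an endosome motor, read 7.67 in C3806 and 7.76 in C3106, 7.64 to 8.06 in teratoma cultures and 8.45 to 8.51 in skin. It lay below every skin culture in all ESC and teratoma cultures, with differences of -0.76 for ESC minus skin (adjusted p = 0.00031) and -0.58 for teratoma minus skin (adjusted p = 0.0067), under the fold limit. KIF1C differed by -0.39 and -0.74, KIF5A by 0.29 and 0.24, and KIF16B by 0.33 and 0.33. KIF12, KIF17, KIF19, KIF1B, KIF24, KIF25, KIF27, KIF3A, KIF3C and KIF6 had ESC differences between -0.37 and 0.51, none of which passed.

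The choice of probe set mattered for several genes. Of the 14 genes called between ESCs and teratoma fibroblasts, 9 had another probe set. For 3 of them another set passed the fold limit the same way, for 6 none did, and for none did one pass it the other way. Against skin, 14 of the 27 called genes had another probe set, and 8 of these passed the same way. Genes not called also differed between their probe sets. Another ANLN probe set read 4.47 in C3806 and 4.12 in C3106, against 8.14 to 12.16 in teratoma cultures and 9.49 to 10.35 in skin, a difference of -6.08 from teratoma fibroblasts and -5.69 from skin. The remaining 2 ANLN probe sets gave -0.15 and -0.36 from teratoma fibroblasts.

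KIF5C, a neuron-enriched heavy chain of conventional kinesin, differed by 0.58 and 0.52 on its brightest probe set, while another read 10.21 in C3806 and 9.75 in C3106, against 4.86 to 6.31 in teratoma cultures and 4.99 to 5.20 in skin. That set differed by 4.66 and 4.89. Of the 6 PLK2 probe sets, 2 gave -2.61 and -2.59 from teratoma fibroblasts and 4 gave 0.35 to 0.44. A second probe set of KIF5B, the ubiquitous heavy chain, gave -2.32 and -2.35, where the brightest gave -0.72 and -0.72. Which probe set reads the transcript best was not tested.

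**Figure D5:**
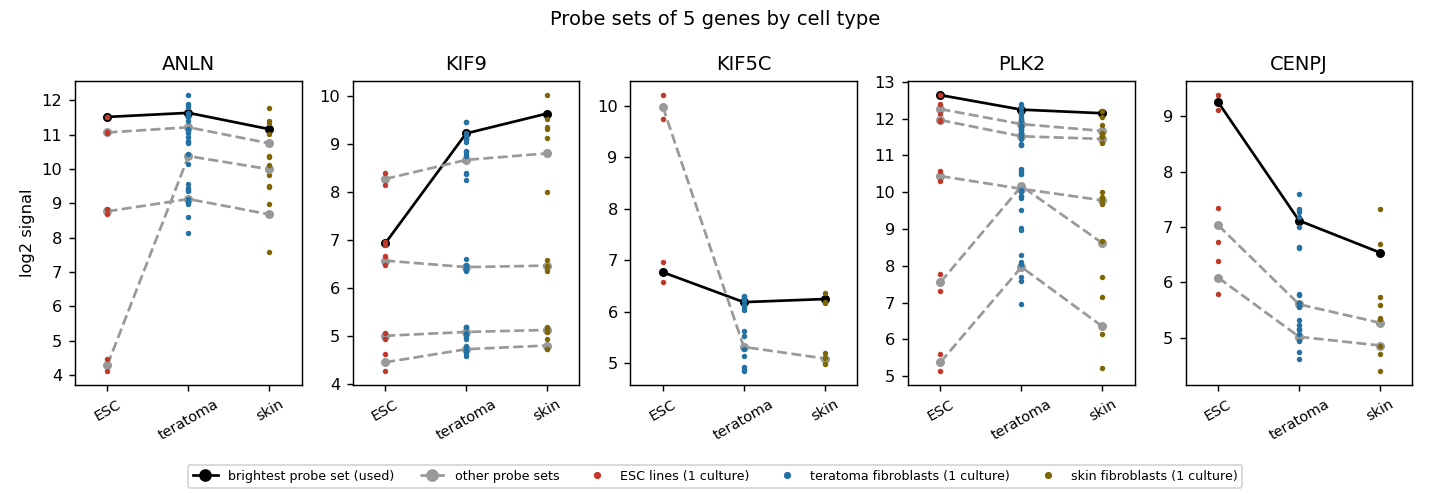
Log2 signal (y axes) of every probe set of 5 genes by cell type (x axes): lines join cell-type means, black for the brightest probe set and grey for others, and points are cultures. ANLN and PLK2 have probe sets far lower in ESCs beside level ones, KIF5C one far higher, KIF9 a low ESC level on the brightest only, and all CENPJ probe sets are higher in ESCs.

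More of the 61 genes were called among the skin cultures than among the teratoma cultures. With arrays as replicates of a culture, 22 of the 61 genes differed among the 3 skin cultures with a range of at least 1, against 8.77% of all genes, and 12 differed among the 8 teratoma cultures, against 15.0% of all genes. These tests measure the spread between arrays of a culture. In all 22 genes M106p1 was the lowest skin culture, and in 1 of the 22, KIF7, M032 and M088 were at least 1 apart. Over the 38 genes M032 and M088 differed by a median of 0.18 and at most 0.91. The widest skin ranges were 2.58 for SPC25, 2.54 for TOP2A, 2.46 for NUF2 and 2.30 for MAD2L1.

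M106p1 was the lowest of all 13 cultures in 35 of the 61 genes, or 57.4%, and in 17.3% of all genes. It was lowest for all 6 mitotic kinesins, 12 of 14 inner kinetochore genes, all 3 outer kinetochore genes, all 3 genes of the spindle and cytokinesis group, and 4 of the 23 other kinesins. Its mean of 20 replication genes was 7.88, against 8.83 in M032 and 9.05 in M088, and its mean of 7 fibroblast genes was 11.37, against 11.46 and 11.60. Among those 7, the surface marker THY1 read 8.35 in M106p1, against 11.32 in M032 and 10.77 in M088. Its part in each skin comparison is shown by the values without it above.

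KIF7, a ciliary regulator of Hedgehog signalling, was the exception among the skin cultures, with 10.13 in M032, 9.09 in M088 and 7.98 in M106p1, against 7.56 to 8.23 in teratoma cultures. M106p1 lay inside the teratoma range and the other skin cultures above it. The teratoma minus skin difference was -1.15 (SE 0.33, adjusted p = 0.0613), and without M106p1 it was -1.70 (SE 0.26, adjusted p = 0.0095).

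Among the teratoma cultures, KIF26B, a non-motile kinesin-like protein, had the widest range, 2.19, from 5.76 in TD31 to 7.96 in TA38 (adjusted p = 1.3e-11). Both ESC lines, at 6.05 in C3806 and 5.78 in C3106, lay at the low end of that range. Among the other genes called there, the range was widest for KIF18A with 1.25, CENPU with 1.21, CENPK with 1.17, and KIF21A and SPC25 with 1.16. KIF21A was highest in TA38 at 6.51, TB38 at 6.41 and TA31 at 6.22, and at most 5.74 in the other teratoma cultures.

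TB38 and TE31 were the low teratoma cultures. Of the 38 genes TB38 was lowest of the 8 in 17 and TE31 in 14, while over all genes TB38 was lowest in 14.9% and TE31 in 18.6%. TC38 was highest in 11, TD31 in 9 and TB31 in 8. Over all 14132 genes TC38 was highest in 2535, TD31 in 1655 and TB31 in 1523. TE31, highest in 0 of the 38, was highest in 4018 of all genes. TB38 was lowest for KIF2C, KIF22, KIF23, KIF4A, AURKA, AURKB, TPX2, TOP2A and ANLN, and TE31 for CENPU, CENPH, CENPC, CENPF, CENPK, KIF18A, SPC25 and MAD2L1. For replication genes TB38 was lowest in 14 of 20 and TD31 highest in 16 of 20. The cultures high in muscle genes, TB31, TD31, TA38 and TB38, had 38-gene means of 8.90, 8.84, 8.77 and 8.44, and the other 4 had means of 8.41 to 8.86, so the groups overlapped.

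None of the 61 genes was called for the donor line, which does not show that line has no effect. The ESC line test used arrays as replicates of 1 culture per line, so it measures the spread between arrays only. In the test of whether the ESC difference varies by line, each ESC line was 1 culture. Its standard errors were wide, as for AURKA at -0.28 with SE 0.77. Between ESC lines C3806 and C3106 none of the 61 was called, with 1.08% of all genes called and 17 of the 61, or 27.9%, at an unadjusted p under 0.05, against 23.4% of all genes. CENPH had the largest gap, -0.86 (adjusted p = 0.0032), under the fold limit. Between teratoma cultures of line C3806 and those of line C3106 none was called by limma, with 0.0425% of all genes called, and 2 of the 61, or 3.28%, had an unadjusted p under 0.05, against 4.49% of all genes. These were AURKC, at 0.27, and CENPO, at -0.40. The difference between ESCs and teratoma fibroblasts did not pass a test for differing between the lines in any of the 61 in limma, with 0.0566% of all genes called and 1 of the 61, or 1.64%, at an unadjusted p under 0.05, against 5.29% of all genes.

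Other cell cycle genes were counted the same way. Among all genes, 6.49% were higher in ESCs than in teratoma fibroblasts and 8.36% lower. Against skin, 10.3% of all genes were higher and 9.91% lower, or 8.82% and 9.84% without M106p1. Of 22 genes of mitotic entry and exit, 4 (18.2%) were higher in ESCs than in teratoma fibroblasts and 1 (4.55%) lower. Against skin 13 (59.1%) were higher and none lower. Without M106p1, 8 of the 22 were higher than in skin. WEE1, a kinase that delays mitosis, was higher in ESCs by 1.06 and 2.58, CDC25A, a phosphatase that opposes it, by 1.32 and 1.93, and CKS1B, a CDK subunit, by 1.27 and 1.86. CCNB1, the mitotic cyclin, differed by 1.13 (adjusted p = 0.0809) and 1.89 (adjusted p = 0.0146). Without M106p1 its difference from teratoma fibroblasts passed (adjusted p = 0.0044), and that from skin was 1.15. CDC25B was the gene lower in ESCs than in teratoma fibroblasts, by -1.02.

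Of 20 replication genes, 6 (30%) were higher in ESCs than in teratoma fibroblasts and 1 (5%) lower. Against skin 15 (75%) were higher and 1 (5%) lower, or 13 higher and 1 lower without M106p1. MCM3 and MCM2, of the replicative helicase, were higher by 1.53 and 1.59 over teratoma fibroblasts and by 2.84 and 2.60 over skin. CCNE2, a G1/S cyclin, was the gene lower in ESCs, by -3.23 and -2.07, and its relative CCNE1 was higher by 1.24 and 1.80. Of 13 condensin and cohesin genes, 1 (7.69%) was lower in ESCs than in teratoma fibroblasts, STAG1 at -1.93, and none was higher. That share was near the 8.36% of all genes called lower. Against skin 4 (30.8%) were higher, with SMC2 at 2.21, or 3 without M106p1.

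Of 16 regulators of cell cycle transcription, 2 (12.5%) were higher in ESCs than in teratoma fibroblasts, TFDP2 at 1.82 and MYBL2 at 1.17. LIN52 was lower at -1.19, or 1 of the 16 (6.25%). Among all genes the shares were 6.49% higher and 8.36% lower. Against skin 4 (25%) were higher, and without M106p1 2 were higher and LIN52 was lower. FOXM1, the transcription factor of G2 genes, differed by 0.45 (adjusted p = 0.279) and 1.03 (adjusted p = 0.0341). Without M106p1 the FOXM1 difference from skin was 0.60 and did not pass (adjusted p = 0.0887). Of 7 cell cycle inhibitors, the same 3 (42.9%) were lower in ESCs in both comparisons. CDKN2A read 4.45 in C3806 and 4.08 in C3106, against 8.71 to 10.23 in teratoma cultures and 8.60 to 9.02 in skin. CDKN1A read 7.82 and 8.18 in the lines, against 10.81 to 12.04 in teratoma cultures and 11.68 to 12.21 in skin. CDKN2C differed by -2.34 and -2.59. For CDKN2A, M106p1 read 8.79, between 8.60 in M032 and 9.02 in M088. It was the lowest skin culture for CDKN1A, at 11.68 against 12.21 and 11.94, and for CDKN2C, at 9.22 against 9.76 and 10.21.

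The 61 genes lay on 19 chromosomes in the RefSeq gene table of assembly T2T-MMU8v2.0. Of the genes called in both ESC comparisons, KIF2C lies on chromosome 1, CENPF on 1, CENPC and CENPU on 5, CENPH on 6, CENPW on 4, KIF26A on 7, KIF21A on 11, AURKB and CENPV on 16, CENPJ on 17, KIF22 on 20, BUB3 on 9 and KIF9 on 2. The labels name no build for the array design, so no coordinates are given.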

How the data were processed

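The deposited table holds log2 signals of 52865 probe sets on 39 arrays, which the authors made with GCOS and RMA, per the submitters' processing notes; their versions and settings are not stated. RMA makes the arrays' distributions alike, so values are relative to each array. No depth applies, and the number of arrays and cultures limits the precision. The platform annotation names 1 gene for 24956 probe sets used here, several for 361 and none for 27535.

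Arrays of a culture were averaged and 3 classes were fitted to the 13 means, with 10 residual degrees of freedom, using limma 3.58.1 (R 4.3.3). Teratoma lines and the line interaction used 5 classes. Spread among cultures and the ESC lines used 36 arrays with 23 residual degrees of freedom. The script was tested on simulated data. A replicate-letter block was tried as an alternative, since letters may mark shared handling.

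The members, role lists and comparison lists were chosen with earlier results of these data known. Genes named were those written out in the rule or central to their role, the 8 largest rises and falls per comparison, the 2 largest differences per role, the 8 widest teratoma ranges, and up to 3 per comparison list; other members were named after their values were seen. Keratinocyte, leukocyte, endothelial and neural markers are in the closing section.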

Additional observations from a re-analysis of the deposited data

Results flagged for a closer look

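Among the 8 teratoma cultures, CENPK in TE31 lay far from the others, at a log2 signal of 8.66, against 9.35 to 9.83 in the other 7 cultures. Its gap to the nearest culture was 0.589 of the whole range, and chance flags about 1 in 20 groups.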

How the results depend on the processing

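Over 27 settings the count of the 61 genes called higher in ESCs than in skin stayed within 1.5 times of 24, at 16 to 31 (16 to 26 with a culture left out). Against teratoma fibroblasts 4 to 12 were higher with a culture left out, against 11, with 5 without C3106 and 4 without C3806. Without a fold limit 18 were higher and 7 lower, 6 were lower at a 1.5-fold limit and 7 on the most variable probe set. Against skin 5 were lower on the mean of all probe sets, 6 on the most variable, and 8 at a 1.5-fold limit or with none. With a culture left out, 3 to 4 were lower than in teratoma fibroblasts and 3 lower than in skin. The count higher in teratoma than in skin fibroblasts, 4, depended on the setting: 0 with 5 classes, all 39 arrays, no TB31 and TD31, or arrays centred on their medians, 2 on the mean of all probe sets, on the most variable probe set or with a trended robust prior, 8 with culture as a random block, and 0 to 12 with a culture left out. There, 1 was lower with the random block, the replicate block, repeated quantile normalization, no fold limit, or without M106p1 (0 to 1). With all 39 arrays 2 genes differed among teratoma and 6 among skin cultures, and 7 among teratoma on the mean of all probe sets. The replicate block changed no other call count by over 1.5 times. ANLN turned to -1.23 against skin on the mean of all probe sets and -5.69 on the most variable, and PLK2 to -2.61 against teratoma fibroblasts on the most variable. The cause was not tested beyond the probe sets themselves. An alternative chosen after seeing the data, without the 3 skin cultures, gave 12 higher and 3 lower. Of the single-gene values, 2378 kept direction and call, 118 lost the call, 43 gained it and 3 reversed. Signal over background was not available, which limits dim genes.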

Other observations

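Markers of other cell types were level across the 3 kinds of culture for keratinocytes, with means of 4 genes of 7.35 in C3806 and 7.30 in C3106, 7.23 to 7.36 in teratoma cultures and 7.26 to 7.36 in skin cultures. The mean of 5 leukocyte genes was 5.65 in C3806 and 5.57 in C3106, 5.58 to 5.89 in teratoma cultures and 5.41 to 5.67 in skin. The mean of 5 endothelial genes was 5.95 in C3806 and 6.48 in C3106, 5.99 to 6.78 in teratoma cultures and 6.30 to 6.80 in skin. The mean of 5 neural genes was 6.88 in C3806 and 6.997 in C3106, and higher in the fibroblasts, at 7.16 in TD31 to 8.85 in TA38 among teratoma cultures and 7.24 to 7.71 in skin. Its members went both ways: GFAP was higher in ESCs, at 9.20 in C3806 and 8.94 in C3106, against 7.28 to 8.00 in teratoma cultures and 7.19 to 7.81 in skin. Their part in the differences of the spindle genes was not tested.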
